A study of Mus musculus with 8 samples.

Results

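Muscle wasting and muscle repair are run by a small set of genes, and 10 of them are described here in whole paws of arthritic mice: Fbxo32, Trim63, Foxo1, Foxo3, Mstn, Fst, Myod1, Myog, Chrna1 and Gadd45a. A member is the probe set that the platform annotation assigns to that symbol and to no other. All 10 genes were found, each with 1 probe set, among 28939 tested probe sets that name 19938 genes. Symbols and positions were matched to RefSeq on GRCm38.p6, where all 10 are protein-coding genes.

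Male DBA/1J mice aged 8 to 10 weeks were kept in 4 groups of 8, and 2 Affymetrix Mouse Gene 1.0 ST arrays were hybridised per group, 8 in all, with RNA from excised paws. The CIA+MLIF mice received chicken type II collagen (150 µg) in complete Freund adjuvant at the tail base, a booster in incomplete Freund adjuvant after 3 weeks, and MLIF nasally each week, starting before the first collagen injection. MLIF stands for monocyte locomotion inhibitory factor, a small anti-inflammatory peptide made by the parasite Entamoeba histolytica. The CIA mice (collagen-induced arthritis) received the collagen protocol without MLIF, the adjuvant+MLIF mice received complete then incomplete adjuvant with weekly MLIF and no collagen, and the adjuvant mice received the adjuvants alone. Thus all 4 groups carried adjuvant, and no untreated mice are among them. The labels place collection 4 weeks after the booster, while the series text places it before the booster. They call the arrays biological replicates without saying whether 1 array held 1 mouse or a pool.

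Values are log2 signals per probe set as deposited, and differences between groups are log2 changes from a limma fit over all probe sets. A probe set is called when its Benjamini-Hochberg adjusted p over all 28939 is under 0.05. A log2 signal compares 1 gene between arrays and does not rank different genes. Replicate arrays correlated at 0.988 to 0.999 over all probe sets. The array labelled CIA replicate 1 stood lower than the others, with a median signal of 6.66 against 7.07 to 7.10 on the other 7 arrays. The adjuvant+MLIF arrays differed by an SD of only 0.0936, against 0.207 to 0.324 within the other groups. Results that use the CIA arrays were therefore also computed without CIA replicate 1, and that value is given where it alters the call of a member or moves a count of the muscle lists by over 1.5 times.

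Skeletal muscle loses mass when protein breakdown outruns synthesis. In that state FoxO transcription factors are known to switch on Fbxo32 (atrogin-1) and Trim63 (MuRF1), ubiquitin ligases that mark muscle proteins for the proteasome. Myostatin (Mstn) restrains muscle growth and follistatin (Fst) binds and blocks it, while Myod1 and Myog drive the differentiation of muscle precursors during repair. Denervated fibres are known to raise Myog, the acetylcholine receptor subunit Chrna1 and Gadd45a. A paw extract holds small intrinsic muscles together with skin, bone, joint, fat and nerve, so a muscle transcript can fall through a smaller share of muscle RNA as well as through less transcript per fibre. In bulk tissue fewer fibres and less RNA per fibre cannot be told apart.

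The promoters of 2 genes that moved together and the promoter of a gene that did not are shown first, as RefSeq gives them on GRCm38.p6, running 5′ to 3′ over 250 bases before and 50 bases after the transcript start. Promoters were on hand for 7 of the 10 genes. Capitals mark E boxes (CANNTG, the motif class bound by MyoD and other basic helix-loop-helix factors) and the FoxO core (GTAAACA, on either strand). The Trim63 promoter lies on the plus strand at chr4:134314870-134315169, the Chrna1 promoter on the minus strand at chr2:73580289-73580588, and the Mstn promoter on the plus strand at chr1:53061390-53061689.
Trim63: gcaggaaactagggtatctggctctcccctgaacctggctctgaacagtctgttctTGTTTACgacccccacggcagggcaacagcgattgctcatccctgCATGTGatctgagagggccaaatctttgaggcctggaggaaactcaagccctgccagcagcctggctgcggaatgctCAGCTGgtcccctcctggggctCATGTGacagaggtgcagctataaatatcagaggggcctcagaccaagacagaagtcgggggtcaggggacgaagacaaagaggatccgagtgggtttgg
Chrna1: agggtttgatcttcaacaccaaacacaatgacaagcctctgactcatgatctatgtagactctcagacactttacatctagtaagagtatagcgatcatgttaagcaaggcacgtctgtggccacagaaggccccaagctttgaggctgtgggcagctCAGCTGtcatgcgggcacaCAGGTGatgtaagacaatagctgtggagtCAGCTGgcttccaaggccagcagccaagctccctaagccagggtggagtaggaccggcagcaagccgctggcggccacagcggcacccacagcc
Mstn: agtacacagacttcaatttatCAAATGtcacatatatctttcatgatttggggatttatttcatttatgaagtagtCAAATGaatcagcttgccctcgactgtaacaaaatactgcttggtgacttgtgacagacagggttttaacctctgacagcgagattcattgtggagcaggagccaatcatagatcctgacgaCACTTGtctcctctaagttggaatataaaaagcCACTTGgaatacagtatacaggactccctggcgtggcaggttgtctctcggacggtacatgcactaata
Trim63 holds 3 E boxes, whose first bases lie 149, 72 and 50 bases before the start, and 1 FoxO core that reads TGTTTAC on the strand printed, 194 bases before the start. Chrna1 holds 3 E boxes, at 92, 73 and 44 bases, and Mstn holds 4, at 229, 174, 52 and 19 bases. The form CAGCTG occurs at 72 bases in Trim63 and at 92 and 44 bases in Chrna1, and in none of the Mstn E boxes. Of 32851 mouse promoters of this length 72.3% hold a CANNTG, 16.3% hold a CAGCTG and 3.65% hold a GTAAACA, so an E box is the common state. The promoters not printed, those of Myog, Foxo1, Gadd45a and Foxo3, hold no CAGCTG and no GTAAACA. None was on hand for Fbxo32 and Myod1, which were also called lower in CIA paws, or for Fst. The promoters printed were chosen by the changes given below, and a link between motif and change was not tested. These matches describe letters and do not show that a factor was bound.

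In paws with collagen-induced arthritis the atrophy ligases, Myod1 and Chrna1 were lower than in adjuvant paws and Gadd45a was higher. Of the 10 genes 5 were called, 1 higher and 4 lower, and over all probe sets 18.5% were called (4.3% higher and 14.2% lower). The other 5 genes, Foxo1, Foxo3, Mstn, Fst and Myog, did not pass. The median log2 change of the 10 genes was -0.48, beside -0.25 for all probe sets. That overall shift depends on scaling. After quantile normalization the median of all probe sets was 0.01 and the calls were 4174 higher and 3950 lower, in place of 1245 higher and 4107 lower, and the 5 called genes kept their calls.

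**Figure D1:**
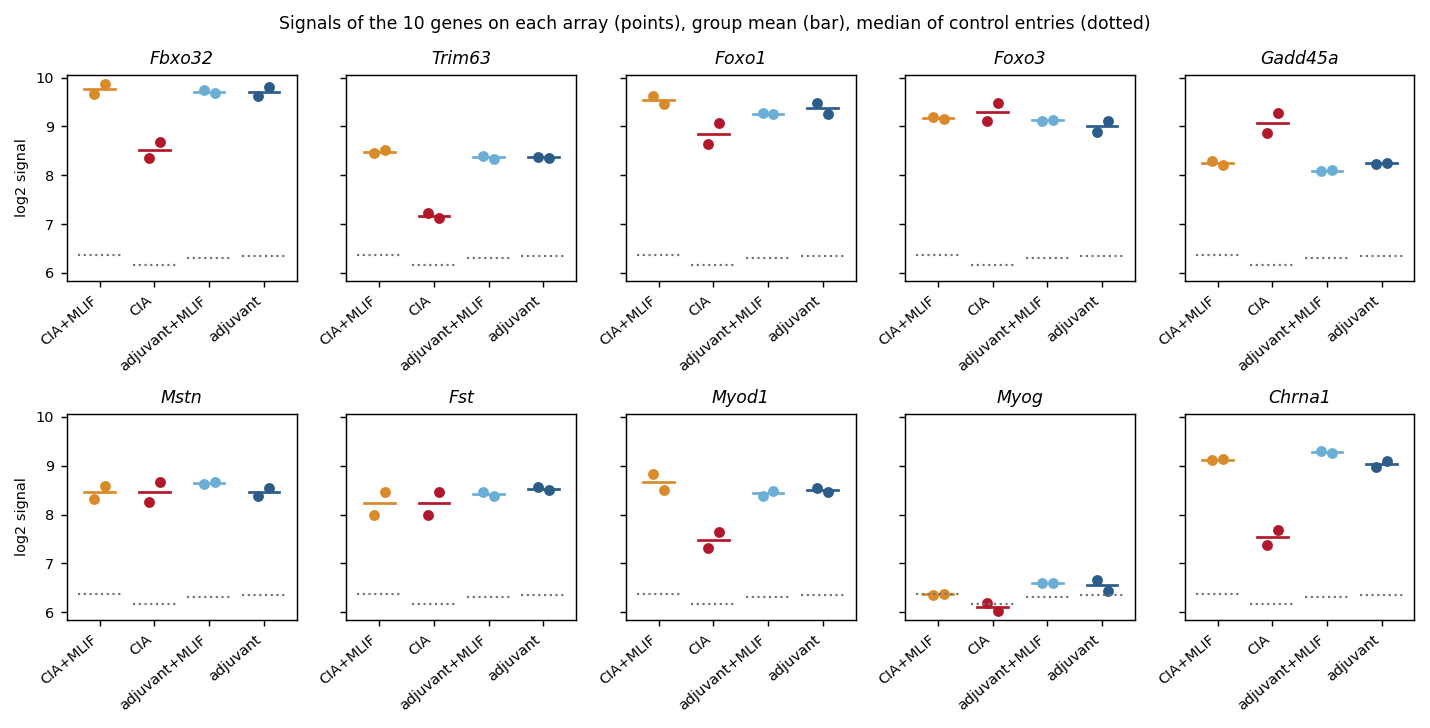
Log2 signal of each of the 10 genes on each of the 8 arrays, by group (CIA+MLIF, CIA, adjuvant+MLIF, adjuvant); points are arrays, bars are group means, and the dotted line is the median of the array control entries. Fbxo32, Trim63, Myod1 and Chrna1 are low on both CIA arrays, Gadd45a is high on both, and Myog lies near the control median in every group.

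Fbxo32 (15:58175879-58214892) encodes atrogin-1, the substrate-binding F-box subunit of a muscle ubiquitin ligase. Its log2 signal was 9.66 and 9.87 in CIA+MLIF paws, 8.34 and 8.68 in CIA paws, 9.75 and 9.68 in adjuvant+MLIF paws, and 9.62 and 9.80 in adjuvant paws. Both CIA arrays lay clearly below every other array, and the other 3 groups overlapped. The CIA mean was 0.436 times the adjuvant mean, a log2 change of -1.20 (SE 0.171, adjusted p = 0.00144, limma), and -1.03 without CIA replicate 1.

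Trim63 (4:134315120-134329629) encodes MuRF1, a ubiquitin ligase of the sarcomere that marks myosin and other thick filament proteins. It read 8.45 and 8.52 in CIA+MLIF paws, 7.22 and 7.12 in CIA paws, 8.40 and 8.34 in adjuvant+MLIF paws, and 8.38 and 8.36 in adjuvant paws. The replicates of each group differed by little, and the CIA pair stood alone. Its log2 change in CIA paws against adjuvant paws was -1.20 (SE 0.139, adjusted p = 0.000455, limma), again 0.436 times the adjuvant level. The call held with each array left out in turn, with log2 changes between -1.25 and -1.14.

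Foxo1 (3:52268337-52350109) and Foxo3 (10:42181845-42276695) encode the FoxO factors that drive both ligases in wasting muscle. Foxo1 read 9.63 and 9.46 in CIA+MLIF paws, 8.63 and 9.08 in CIA paws, 9.28 and 9.25 in adjuvant+MLIF paws, and 9.48 and 9.25 in adjuvant paws. Both CIA arrays were below the adjuvant arrays, but they differed from each other by about as much as from the controls, and the log2 change of -0.51 did not pass (95% interval -0.93 to -0.10, adjusted p = 0.0839, limma). It passed without CIA replicate 2 (-0.74, adjusted p = 0.00362).
Foxo3 read 9.20 and 9.15 in CIA+MLIF paws, 9.11 and 9.47 in CIA paws, 9.11 and 9.13 in adjuvant+MLIF paws, and 8.89 and 9.12 in adjuvant paws. The CIA arrays overlapped the adjuvant arrays, with a log2 change of 0.28 (95% interval -0.10 to 0.66, adjusted p = 0.251, limma). Foxo3 passed as higher after quantile normalization (0.41, adjusted p = 0.0172) and without CIA replicate 1 (0.46, adjusted p = 0.0353).

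Gadd45a (6:67035096-67037407), a stress-induced growth arrest gene that also promotes atrophy in denervated muscle, was the 1 gene of the 10 called higher in CIA paws. It read 8.28 and 8.21 in CIA+MLIF paws, 8.86 and 9.28 in CIA paws, 8.09 and 8.10 in adjuvant+MLIF paws, and 8.23 and 8.25 in adjuvant paws. Both CIA arrays were above all other arrays. The CIA level was 1.78 times the adjuvant level, a log2 change of 0.83 (SE 0.168, adjusted p = 0.00937, limma). The call was lost without adjuvant replicate 1 (adjusted p = 0.0789) or 2 (adjusted p = 0.0729), with the change itself near 0.83 in both. Gadd45a is induced by stress in many cell types, and a paw extract does not show which cells carried it.

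Mstn (1:53061640-53068079), the secreted brake on muscle growth, read 8.32 and 8.59 in CIA+MLIF paws, 8.26 and 8.67 in CIA paws, 8.63 and 8.66 in adjuvant+MLIF paws, and 8.39 and 8.54 in adjuvant paws. The CIA arrays lay on both sides of the adjuvant arrays, and the log2 change between the group means was 0.00. The interval of the CIA change, -0.41 to 0.41 (adjusted p = 0.992, limma), does not reach the change seen in either ligase. Among the muscle fibre genes used below, the smallest fall was -0.72, which also lies outside that interval. The Mstn promoter printed above is the one with 4 E boxes and no CAGCTG.

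Fst (13:114452262-114458989), the secreted antagonist of myostatin and activins, read 7.99 and 8.47 in CIA+MLIF paws, 7.99 and 8.47 in CIA paws, 8.46 and 8.38 in adjuvant+MLIF paws, and 8.56 and 8.49 in adjuvant paws. The spread within both collagen groups was wider than the gap to the controls. Its log2 change in CIA paws was -0.30 (95% interval -0.77 to 0.18, adjusted p = 0.323, limma), and it passed only without CIA replicate 2 among the arrays left out (-0.53, adjusted p = 0.0434).

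Myod1 (7:46376474-46379092), the master transcription factor of the muscle lineage, read 8.83 and 8.50 in CIA+MLIF paws, 7.32 and 7.65 in CIA paws, 8.39 and 8.48 in adjuvant+MLIF paws, and 8.54 and 8.45 in adjuvant paws. Both CIA arrays lay well below all others. The CIA level was 0.496 times the adjuvant level, a log2 change of -1.01 (SE 0.175, adjusted p = 0.00424, limma). It narrowly missed the threshold without adjuvant replicate 1 (adjusted p = 0.0503).

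Myog (1:134290004-134292548), which acts after Myod1 and commits myoblasts to fuse, read 6.36 and 6.38 in CIA+MLIF paws, 6.19 and 6.03 in CIA paws, 6.60 and 6.59 in adjuvant+MLIF paws, and 6.67 and 6.44 in adjuvant paws. The array control entries had medians of 5.88 to 6.44, so Myog was close to the level of control entries everywhere. Its log2 change in CIA paws was -0.44 (adjusted p = 0.0719, limma), and -0.15 after quantile normalization (adjusted p = 0.562). It passed without either CIA array, with -0.52 (adjusted p = 0.0229) without replicate 1 and -0.36 (adjusted p = 0.0373) without replicate 2. At this signal a change in Myog is hard to measure in either direction.

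Chrna1 (2:73563281-73580338) encodes the alpha subunit of the muscle acetylcholine receptor at the motor end plate. It read 9.11 and 9.14 in CIA+MLIF paws, 7.38 and 7.68 in CIA paws, 9.29 and 9.26 in adjuvant+MLIF paws, and 8.97 and 9.10 in adjuvant paws. Both CIA arrays stood far below the arrays of the other groups, which lay close together. Its fall in CIA paws was the largest of the 10 genes, to 0.353 times the adjuvant level (log2 change -1.50, SE 0.155, adjusted p = 0.000229, limma). The call held with each array left out, with changes between -1.65 and -1.35. Its promoter, above, carries the CAGCTG form at 92 and at 44 bases.

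**Figure D2:**
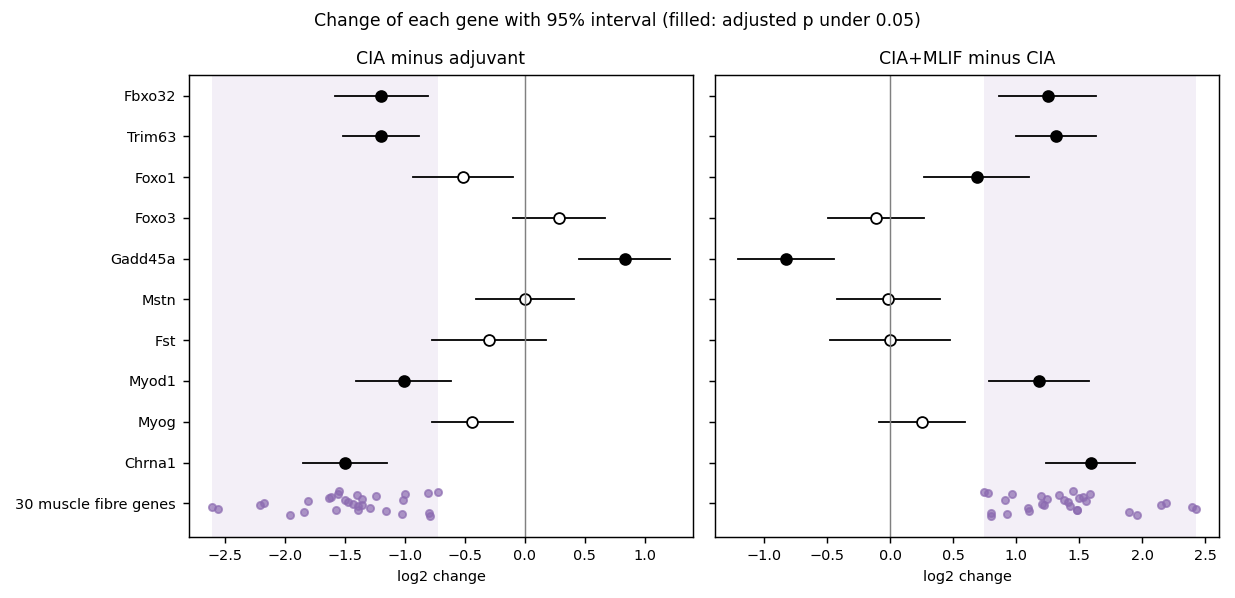
Log2 change of each gene, CIA minus adjuvant and CIA+MLIF minus CIA, with 95% intervals; filled points are called at an adjusted p under 0.05, and the shaded band spans the changes of the 30 muscle fibre genes. Fbxo32, Trim63, Myod1 and Chrna1 lie inside the band in both comparisons, and the intervals of Mstn, Fst and Foxo3 include 0 in both.

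With MLIF added to collagen, both ligases, Myod1 and Chrna1 were higher than in CIA paws and Gadd45a was lower. In CIA+MLIF paws against CIA paws 6 of the 10 genes were called, 5 higher and 1 lower, beside 14.7% of all probe sets (11.5% higher and 3.26% lower). This comparison and the one above use the same CIA arrays, so an unusual CIA array moves both, in opposite directions, and their values are given side by side only. The median log2 change of the 10 genes was 0.47, beside 0.24 for all probe sets. Here too the background depends on scaling. After quantile normalization the median of all probe sets was -0.02 and the calls were 3319 higher and 3770 lower, in place of 3314 higher and 942 lower.

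Both ligases were higher with MLIF. Fbxo32 had a log2 change of 1.25 (SE 0.171, adjusted p = 0.00165, limma), 2.38 times the CIA level. Trim63 had one of 1.32 (SE 0.139, adjusted p = 0.000407, limma), 2.49 times the CIA level. Neither call depended on a single array. Myod1 was 2.26 times higher (log2 change 1.18, SE 0.175, adjusted p = 0.00252, limma) and Chrna1 3.02 times higher (1.59, SE 0.155, adjusted p = 0.000258, limma).

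Gadd45a fell to 0.564 times the CIA level in CIA+MLIF paws (log2 change -0.83, SE 0.168, adjusted p = 0.012, limma). That call was lost without CIA+MLIF replicate 1 (adjusted p = 0.0749) or 2 (adjusted p = 0.0792). Foxo1 was 1.61 times higher (log2 change 0.69, SE 0.184, adjusted p = 0.0377, limma), a call that held in 1 of the 8 fits with an array left out, the one without CIA replicate 2, and not without CIA replicate 1 (0.47, adjusted p = 0.0539).
Foxo3 (-0.11, 95% interval -0.49 to 0.27), Mstn (-0.01, -0.42 to 0.40), Fst (0.00, -0.47 to 0.47) and Myog (0.25, -0.08 to 0.59) did not pass. The sign of Myog turned after quantile normalization, to -0.05. For Mstn and Fst the intervals exclude a change as large as that of either ligase, in both comparisons.

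These changes were next set beside the muscle content of the same extracts. Muscle fibre content was read from 30 genes of the contractile and calcium-handling apparatus, among them the myosin heavy chains, troponins, Ckm and Ttn. Their mean log2 signal was 12.02 and 12.28 on the CIA+MLIF arrays, 10.61 and 10.87 on the CIA arrays, 12.27 and 12.27 on the adjuvant+MLIF arrays, and 12.13 and 12.31 on the adjuvant arrays. Both CIA arrays stood well below the rest. All 30 genes were called lower in CIA paws against adjuvant paws, with log2 changes from -2.61 to -0.72 and a median of -1.42, and all 30 were called higher in CIA+MLIF paws against CIA paws, from 0.75 to 2.43 with a median of 1.39. The slow fibre genes Myl2 (-2.61 and 2.39) and Myh7 (-2.56 and 2.43) had the widest changes in both. With single arrays left out both counts fell in some fits, and in none was a fibre gene called in the opposite direction.

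The ligases and Chrna1 fell by amounts that lie inside the range of the fibre genes. Of the 30 fibre genes 22 fell further than Fbxo32, 22 further than Trim63, 25 further than Myod1 and 12 further than Chrna1. These 4 of the 10 genes lay within the fibre range in CIA paws, where 11.2% of all probe sets did, and 4 of the 10 lay within it in CIA+MLIF paws against CIA paws, where 9.92% did. Foxo1, Foxo3, Mstn, Fst, Myog and Gadd45a lay above every fibre gene in the first comparison and below every fibre gene in the second.

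On a second scale the mean of the 30 fibre genes was subtracted from every value of its array, so that a change of 0 means a change equal to that of the fibre genes. Most transcripts of a paw come from other cells, and on this scale 95.1% of all probe sets were called in CIA paws against adjuvant paws (93.7% higher) and 94% in CIA+MLIF paws against CIA paws (92.8% lower). A call on this scale is thus the usual state of a probe set, and the size of the change and its interval carry more than the call.

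Chrna1 tracked the fibre mean most closely, with a relative log2 change of -0.03 in CIA paws against adjuvant paws (95% interval -0.32 to 0.26, adjusted p = 0.831, limma). Fbxo32 rose by 0.28 relative to the fibre mean (0.02 to 0.54, adjusted p = 0.0426, limma). Its relative signal was -2.27 and -2.19 in CIA paws and -2.51 and -2.50 in adjuvant paws, and the call was lost without CIA replicate 2 (adjusted p = 0.116) and without any 1 adjuvant or adjuvant+MLIF array (0.101 to 0.115). Trim63, at 0.28 (-0.09 to 0.65, adjusted p = 0.125, limma), and Myod1, at 0.46 (0.01 to 0.92, adjusted p = 0.0504, limma), did not pass. The Trim63 value depended on the CIA array used, at 0.09 without CIA replicate 1 and 0.46 without CIA replicate 2. Myod1 did pass as higher in several alternatives. These included quantile normalization (adjusted p = 0.0137), the fibre list median in place of its mean (0.0214), the filter on dim probe sets (0.0368) and a trended variance (0.0152). It did not pass with a replicate block. For both ligases the estimate of this comparison was positive.

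Of the 10 genes 7 were called higher on this scale in CIA paws. Beside Fbxo32 they were Foxo1 (0.96), Foxo3 (1.76), Mstn (1.48), Fst (1.18), Myog (1.04) and Gadd45a (2.31). Before the subtraction the median change of all probe sets was -0.25, beside -1.48 for the fibre mean. The median probe set thus also rises on this scale. Fbxo32 (-1.20), Foxo1 (-0.51), Fst (-0.30) and Myog (-0.44) lay below -0.25 before the subtraction, so they rose less than the median probe set. In CIA+MLIF paws against CIA paws 6 were called, all lower: Foxo1 (-0.72), Foxo3 (-1.52), Mstn (-1.42), Fst (-1.41), Myog (-1.15) and Gadd45a (-2.23). Foxo1 (0.69) and Myog (0.25) lay above the median of all probe sets (0.24) before the subtraction. The relative fall of Foxo1 was thus smaller than that of the median probe set. Myog lay only just above that median, and after quantile normalization it lay below it (-0.05 against -0.02). Fbxo32 (-0.16, 95% interval -0.42 to 0.11), Trim63 (-0.09, -0.46 to 0.28), Myod1 (-0.23, -0.69 to 0.23) and Chrna1 (0.19, -0.10 to 0.48) were not called. Over arrays left out the Myod1 value ran from -0.52 to 0.06. Fbxo32 passed as lower after quantile normalization (-0.23, adjusted p = 0.0279, limma) and with the fibre list median (-0.27, adjusted p = 0.0456). For Mstn a flat paw signal and a falling fibre mean are thus the same measurement seen on both scales, and for Myog the relative rise comes from a signal at the level of control entries.

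**Figure D3:**
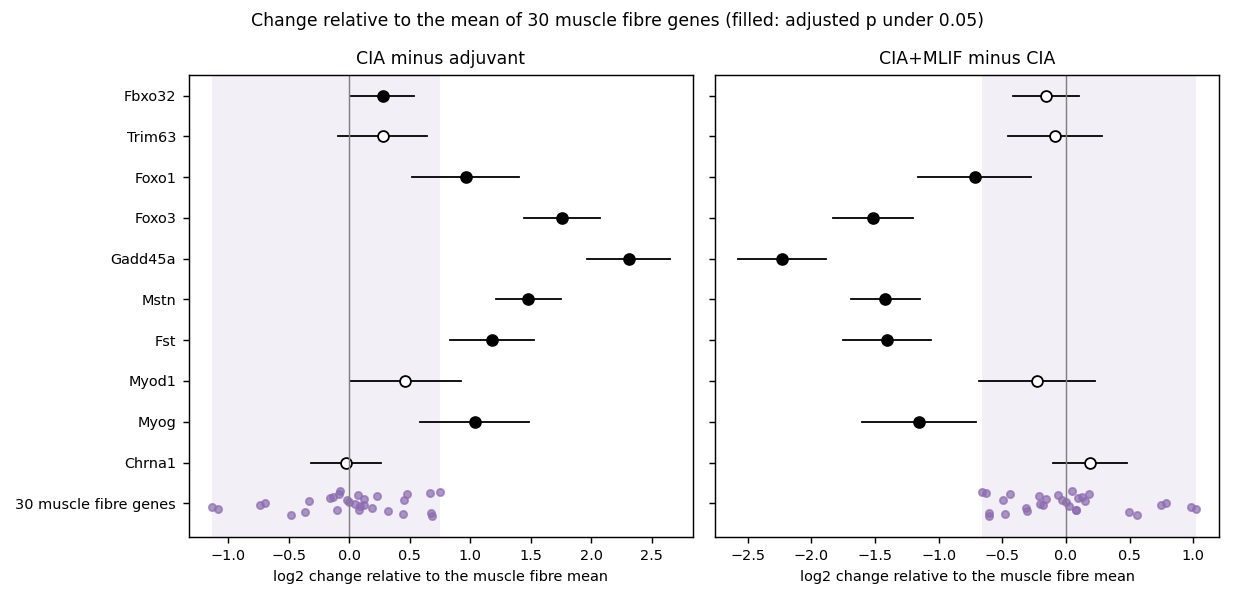
Log2 change of each gene after the array mean of the 30 muscle fibre genes was subtracted, CIA minus adjuvant and CIA+MLIF minus CIA, with 95% intervals; filled points are called, and the violet points and shaded band are the 30 fibre genes themselves. Fbxo32, Trim63, Myod1 and Chrna1 lie within the band in both comparisons, and Gadd45a lies farthest from it.

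Cell types other than muscle moved in the same arrays. Neutrophil genes were called higher in CIA paws for 11 of 11 measured, with array means of 7.48 and 7.55 in CIA+MLIF paws, 9.34 and 9.62 in CIA paws, 8.00 and 8.01 in adjuvant+MLIF paws, and 7.23 and 7.43 in adjuvant paws. Fibroblast and connective tissue genes were higher for 8 of 10 (median log2 change 0.95), adipocyte genes lower for 9 of 9 (-1.17) and Schwann cell genes lower for 4 of 5 (-0.70). The adipocyte count was 5 without either adjuvant array. The Schwann cell count was 0 without either adjuvant array and 2 without any 1 array of CIA+MLIF or adjuvant+MLIF paws. Epidermal genes were higher for 10 of 11, with a mean of 9.58 and 9.68 in CIA+MLIF paws and 10.49 and 10.80 in CIA paws, against 6.05 and 6.04 in adjuvant+MLIF paws and 5.99 and 5.98 in adjuvant paws. In both adjuvant groups the epidermal mean lay below the array control medians. Not every gene of the list lay below those medians. The basal cell factor Trp63 lay farthest above them, with means of 7.26 in adjuvant+MLIF paws and 7.24 in adjuvant paws. Krt10 (6.56 and 6.43) was also above them, and Krt15 (6.51 and 6.35) was above or near them. Krt5 was above them in adjuvant paws, and Krt1 slightly so in adjuvant+MLIF paws. The part of these cell types in the changes of the 10 genes was not tested.

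Epidermal and muscle values are given side by side for CIA+MLIF paws against adjuvant+MLIF paws, and a link between them was not tested. There 8 of 11 epidermal genes were still called higher, with a median log2 change of 4.36 and Krt1 at 6.52, while none of the 10 muscle genes was called. Over all probe sets 0.729% were called in this comparison. The 10 log2 changes ran from -0.23 (Myog) to 0.28 (Foxo1), and the 30 fibre genes, none of them called, from -0.58 to 0.15. Fbxo32 differed by 0.05 (95% interval -0.34 to 0.44) and Trim63 by 0.12 (-0.20 to 0.43). All 10 genes had an adjusted p of 1 in limma, and relative to the fibre mean, where 0.795% of probe sets were called, none of the 10 was called either.

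In mice without collagen, MLIF was not accompanied by a detectable change in these genes. In adjuvant+MLIF paws against adjuvant paws 0 of 10 genes and 0% of all probe sets were called by limma, with 1107 probe sets at an unadjusted p under 0.05. After quantile normalization 25 probe sets were called higher and 340 lower, and still none of the 10 genes. Changes ran from -0.15 (Gadd45a) to 0.24 (Chrna1), and those of Fbxo32 and Trim63 were 0.00 in both cases, with intervals of -0.39 to 0.39 and -0.32 to 0.31. The muscle fibre mean differed by 0.05. None of the 10 was called relative to the fibre mean.

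Whether MLIF was accompanied by a different change in collagen-treated mice than in adjuvant mice was tested as an interaction, (CIA+MLIF minus CIA) minus (adjuvant+MLIF minus adjuvant). It was called for 4 of the 10 genes, all positive, where 7.24% of all probe sets were called (5.62% positive). After quantile normalization the calls over all probe sets were 2492 positive and 2543 negative, in place of 1625 positive and 469 negative. Trim63 had an interaction of 1.32 (SE 0.197, adjusted p = 0.00414, limma) and Chrna1 one of 1.35 (SE 0.22, adjusted p = 0.00588), and both calls held with each array left out. Fbxo32 had 1.25 (SE 0.242, adjusted p = 0.014) and Myod1 1.24 (SE 0.248, adjusted p = 0.0164). Both of these calls were lost when either adjuvant or either adjuvant+MLIF array was left out, with adjusted p between 0.0505 and 0.0986, and when the adjuvant+MLIF arrays were counted as 1 (0.0774 for Fbxo32 and 0.0834 for Myod1). Without CIA+MLIF replicate 2 Fbxo32 also missed the threshold (0.0722), and without CIA+MLIF replicate 1 Myod1 did (0.0863). Of the muscle fibre genes 23 of 30 were called positive, with a median of 1.31. That count was 12 without either adjuvant+MLIF array, 15 and 13 without adjuvant replicate 1 and 2, and 14 without CIA+MLIF replicate 2.

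For Gadd45a the interaction was -0.68 (adjusted p = 0.137, limma), and it passed after quantile normalization (-0.79, adjusted p = 0.00642) and without either CIA array, at -0.89 without replicate 1 (adjusted p = 0.00506) and -0.47 without replicate 2 (adjusted p = 0.0231). That of Foxo1 was 0.79 (adjusted p = 0.113) and passed after quantile normalization (0.69, adjusted p = 0.0487). Relative to the fibre mean none of the ligases, Myod1 or Chrna1 was called, with values of -0.10, -0.04, -0.11 and -0.00 for Fbxo32, Trim63, Myod1 and Chrna1. On that scale 84.6% of all probe sets were called (82.8% negative), and Foxo3 (-1.58), Mstn (-1.54), Fst (-1.24), Myog (-1.14) and Gadd45a (-2.03) were among them.

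The wider pathways around the 10 genes were read from lists that share no member with them. The atrophy programme list holds further ubiquitin ligases, proteasome and autophagy genes and FoxO targets, 28 of them measured. In CIA paws 1 was called higher and 5 lower, with a median log2 change of -0.23 beside -0.25 for all probe sets. Over all probe sets 4.3% were called higher and 14.2% lower. The genes named were Pdk4, a FoxO target that limits glucose oxidation (-1.26), Bnip3, a mitophagy receptor (-1.07), Klf15, a glucocorticoid-induced factor (-1.03), and the metallothionein Mt2 (1.84). In CIA+MLIF paws against CIA paws 5 were higher and 1 lower, beside 11.5% higher and 3.26% lower over all probe sets. The list median there was 0.18, beside 0.24 for all probe sets. The higher genes included Fbxo31 (1.04), Bnip3 (1.02) and Pdk4 (0.99), and Mt2 was lower (-0.80). The autophagy genes Map1lc3b (0.12) and Gabarapl1 (0.21) did not pass in CIA paws. The count of 5 lower was 14 without CIA replicate 2, 2 without adjuvant replicate 2, and 3 without adjuvant replicate 1 or either adjuvant+MLIF array. The count of 5 higher was 11 without CIA replicate 2, and 3 and 2 without CIA+MLIF replicate 1 and 2. After quantile normalization 5 genes of the list, in place of 1, were called higher in CIA paws, and without CIA replicate 1 there were 2. The Mt2 fall was lost without CIA+MLIF replicate 1.

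Of 15 myostatin and activin pathway genes 1 was called higher and 1 lower in CIA paws, with a median of -0.11, beside 4.3% higher and 14.2% lower over all probe sets. Inhba, which encodes the activin A subunit, rose by 1.14 (adjusted p = 0.00148, limma), and Acvr2b, a receptor for myostatin and activins, fell by 0.68 (adjusted p = 0.016). In CIA+MLIF paws against CIA paws Inhba fell by 0.94 (adjusted p = 0.0054, limma) and Acvr2b was 0.58 higher (adjusted p = 0.0375). They were the only genes of the list called there, beside 11.5% higher and 3.26% lower over all probe sets. Inhba thus differed between groups for which Mstn and Fst did not pass. The counts of this list depended on the CIA arrays and on scaling. Without CIA replicate 2 there were 8 lower in CIA paws in place of 1, and 10 higher in CIA+MLIF paws against CIA paws in place of 1. After quantile normalization there were 3 higher and 2 lower in CIA paws, and 3 lower with none higher in CIA+MLIF paws against CIA paws. The lower count there was 2 without CIA replicate 1. Both Acvr2b calls were lost without any 1 adjuvant or adjuvant+MLIF array, and the second also without either CIA+MLIF array and after quantile normalization.

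Of 19 satellite cell and myogenesis genes 12 were called lower and none higher in CIA paws, with a median of -0.66, beside 14.2% lower over all probe sets. Myf6, the myogenic factor of mature fibres, had a log2 change of -2.06, Myh3, embryonic myosin, one of -1.73, and Mef2c, a partner of the myogenic factors, one of -1.63. Among the satellite cell genes, Cdh15 was called lower (-0.58, adjusted p = 0.0206, limma). Pax7 (-0.37, adjusted p = 0.119), Myf5 (-0.42, adjusted p = 0.134), Megf10 (-0.37, adjusted p = 0.172) and Calcr (-0.27, adjusted p = 0.334) did not pass. With MLIF added to collagen, Cdh15 was higher than in CIA paws (0.64, adjusted p = 0.0166), and those other satellite cell genes did not pass. The Pax7 and Myf5 signals in CIA paws, 6.49 and 6.05, were close to the control medians, as were Calcr at 5.87 and Myh3 at 6.22. In CIA+MLIF paws against CIA paws Myf6 was higher by 1.76, the laminin receptor Itga7 by 1.54 and Myh3 by 1.53. Of the 19 genes 10 were called higher there (median 0.64), beside 11.5% over all probe sets. That count was 16 without CIA replicate 2 and 6 without CIA+MLIF replicate 2.

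Of 16 end plate and denervation genes 9 were called higher and 1 lower in CIA+MLIF paws against CIA paws (median 0.74). Over all probe sets 11.5% were higher and 3.26% lower there. The 1 lower gene was Runx1 (-0.59), a call lost when any 1 array of CIA+MLIF, adjuvant+MLIF or adjuvant paws was left out. In CIA paws against adjuvant paws 9 were lower and 1 higher (median -0.67), beside 14.2% lower and 4.3% higher over all probe sets. The lower genes were led by Musk, the agrin-responsive kinase of the end plate (-1.43), Rapsn, which clusters the receptor (-1.09), and the receptor subunit Chrnb1 (-1.09), all in the direction of Chrna1. Musk is also in the myogenesis list. Runx1, which rises in denervated muscle but is also a blood cell factor, was the 1 gene called higher (0.70, adjusted p = 0.0102, limma), a call lost without either adjuvant array. The embryonic receptor subunit Chrng, another denervation gene, had a log2 change of -0.30 (adjusted p = 0.303, limma). Its means of 6.245 in CIA paws and 6.547 in adjuvant paws were close to the control medians, so a change in Chrng is hard to measure. The Rapsn mean in CIA paws, 6.189, was also close to them. The count of 9 lower was 3 with the first adjuvant array left out, 4 with the second, and 15 without CIA replicate 2. The count of 9 higher was 2 with the first CIA+MLIF array left out, 3 with the second, and 15 without CIA replicate 2.

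The growth side was read from 16 genes of the IGF1 and mTOR pathway. In CIA paws 5 were called lower and none higher (median -0.35), beside 14.2% lower and 4.3% higher over all probe sets. The lower genes were led by Ppargc1a, the mitochondrial coactivator (-1.59), Igf2 (-0.93) and the kinase subunit Pik3r1 (-0.88). In CIA+MLIF paws against CIA paws 4 were higher and none lower, beside 11.5% higher and 3.26% lower over all probe sets. Ppargc1a was higher by 1.62, Igf2 by 0.99 and the adaptor Irs2 by 0.72. After quantile normalization 4 genes of the list were also called higher in CIA paws, and without CIA replicate 1 there were 2. In each of those settings 2 were called lower in CIA+MLIF paws against CIA paws. The 5 lower became 2 without any 1 array of CIA+MLIF, adjuvant+MLIF or adjuvant paws and 10 without CIA replicate 2. The 4 higher became 1 or 2 without any of those arrays and 10 without CIA replicate 2.

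**Figure D4:**
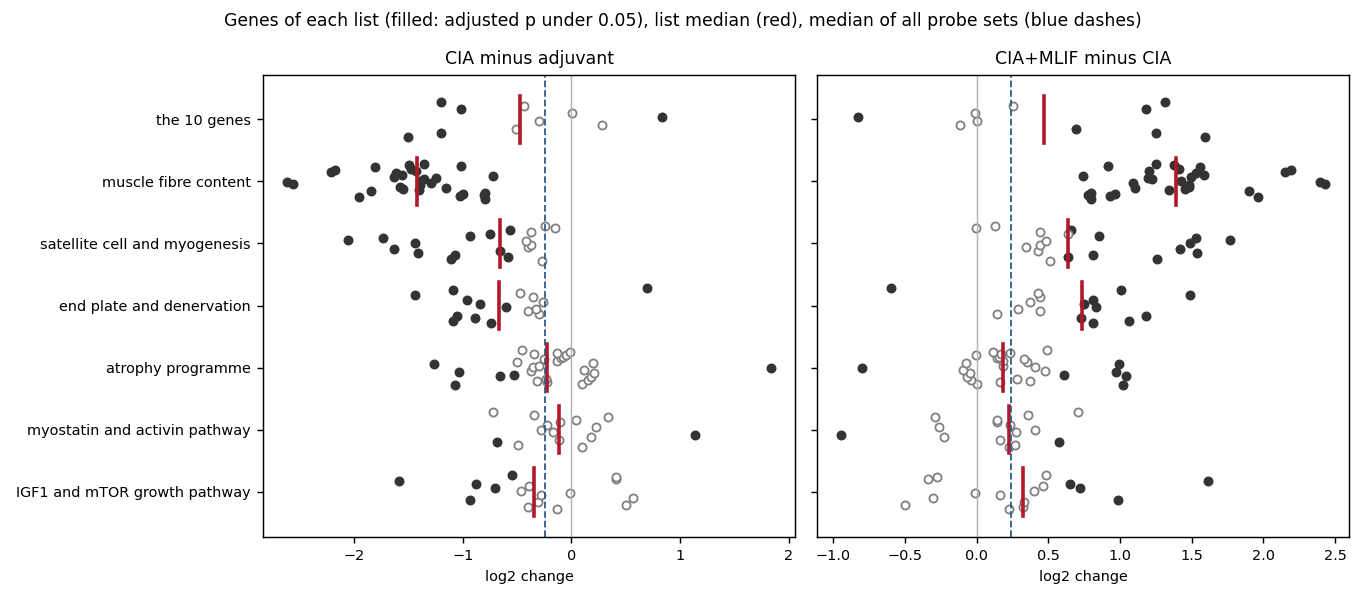
Log2 change of the 10 genes and of every measured gene of the muscle lists, CIA minus adjuvant and CIA+MLIF minus CIA; each dot is a gene, filled where called, the red bar is the list median and the blue dashed line the median of all probe sets. All muscle fibre genes lie below 0 in CIA paws, while the atrophy programme median of -0.23 lies close to that of all probe sets at -0.25.

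The genes whose signals followed each called gene most closely were found by the root mean square difference of log2 signals over the 8 arrays, each gene centred on its own mean, among 17046 genes. For Fbxo32 these were Smyd2 (0.0244), Dhrs7c (0.0403) and Asb5 (0.0447). For Trim63 they were Cacnb1 (0.0514), Tcaim (0.0699) and Acss2 (0.0852), and for Myod1 they were Lrrc38 (0.0489), Lynx1 (0.0573) and Kcnj11 (0.0687). Chrna1 was nearest to Scg3 (0.0639), Lrrn1 (0.0654) and Padi2 (0.0673). Gadd45a was nearest to Lyg2 (0.0766), Ptx3 (0.0789) and Gpr153 (0.0827). These distances describe 8 arrays in 4 groups and carry no test.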

How the data were processed

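Paw RNA of 4 groups was hybridised to Affymetrix Mouse Gene 1.0 ST arrays, 2 per group (300 ng of RNA, per the labels). The deposited table holds log2 values, 1 per probe set and array, from 1.84 to 14.9; the log2 scale was read from the values. Which software and normalization the authors used is not given in the sources used here. The 6618 entries before the first annotated one were taken as array controls and left out. Of the 28939 others, 21789 carry 1 symbol, 1621 several and 5529 none.

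Group means were fitted to all 8 arrays with limma 3.58.1 in R 4.3.3 (residual degrees of freedom 4, prior 4.96). Its two-sided p-values received a Benjamini-Hochberg adjustment across the 28939 probe sets, with a threshold of 0.05. The same fit was run after subtracting each array's mean of 30 muscle fibre genes. Arrays carry no depth; the median SE of a difference was 0.181, and p-values rest on the spread of these arrays, which may be technical. Data for CIA against adjuvant were also simulated, with 28939 probe sets, independent noise, no shift of whole arrays and 50 changed probe sets per size. There 17 of 50 changes of 1 log2 unit and 39 of 50 changes of 1.5 were recovered, with 6 false calls among the unchanged probe sets. In the real arrays 18.5% of probe sets were called in this comparison, so these rates may not carry over. Figures were drawn with Matplotlib 3.10.9.

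The 10 genes and the 11 lists (185 entries, 170 measured) were chosen with earlier results of these data known. Named list genes were at most 3 of the largest rises and 3 of the largest falls among called genes of a list. Pax7, Myf5, Cdh15, Megf10, Calcr, Chrng, Trp63, Krt5, Map1lc3b and Gabarapl1 were added after their values were seen. Alternatives covered normalization, centring, a filter on dim probe sets, probe set averaging, the variance model, array weights, the groups fitted, a replicate block and each array left out. Averaging of the adjuvant+MLIF arrays, quantile normalization without CIA replicate 1 and the list counts with each array left out were added after seeing the data.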

Additional observations from a re-analysis of the deposited data

Results flagged for a closer look

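The change that accompanied MLIF differed between collagen-treated and adjuvant mice for several of the 10 genes, by limma's interaction test. It was 1.25 for Fbxo32, 1.32 for Trim63, 1.24 for Myod1 and 1.35 for Chrna1 on the log2 scale. Relative to the muscle fibre mean the interaction was -1.58 for Foxo3, -1.54 for Mstn, -1.24 for Fst, -1.14 for Myog and -2.03 for Gadd45a, on a scale where 84.6% of all probe sets were called.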

How the results depend on the processing

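Over all alternatives run on the 10 genes no change of a called gene turned its sign, and of their values 1421 kept their direction and side of the threshold, 39 dropped below it, 33 passed it and 47 uncalled values moved. The 5 calls in CIA against adjuvant paws became 3 with array weights, where Myod1 (adjusted p = 0.0607) and Gadd45a (0.0534) were lost, and ran from 3 to 8 over arrays left out, with 3 without adjuvant replicate 1 and 8 without CIA replicate 2. The 6 calls in CIA+MLIF against CIA paws ran from 4 to 6 and were 4 both with array weights and with only the groups compared. The 4 interaction calls ran from 2 to 6, with 2 without either adjuvant or adjuvant+MLIF array, and were 2 with the adjuvant+MLIF arrays averaged. Relative to the fibre mean the counts ran from 6 to 8, 6 to 7 and 5 to 6 in the same 3 comparisons. No member was called under any alternative in the other 2 comparisons. Replicate numbers were shared by the groups, but the replicate differences correlated from -0.107 to 0.39, so they share only a number; with a replicate block the counts were 5, 5, 0, 0 and 4, the lost call being Foxo1 in CIA+MLIF against CIA paws (adjusted p = 0.0512), and 6, 6, 0, 0 and 5 relative to the fibre mean, the lost call being Fbxo32 in CIA against adjuvant paws (0.0582). The cause of these changes was not tested. Array number and signal over background limit Myog, Pax7 and Myf5 in particular.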
